A study of Mus musculus with 9 samples.

Results

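Myeloid C-type lectin receptors are surface proteins of macrophages, monocytes, dendritic cells and neutrophils that bind sugars, lipids and products of dying cells. They were followed here at 10 genes, namely Clec4e, Clec4d, Clec4n, Clec7a, Clec5a, Clec4a1, Clec4a3, Clec4a2, Clec12a and Clec10a, out of 23411 named genes on the array. The genes were taken by name, as a family that holds Clec4e, one of the largest increases in CaCl2-treated against sham aortas. Values of the members against sham are therefore given as a description. Counts of their calls there are set beside the share of all genes called, which is not given for every alternative setting. Tests of single members are given for the effect of added IgG alone.

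The 9 samples were total RNA of whole abdominal aorta from C57BL/6 mice, all of the uMT genotype, in which the membrane form of IgM is missing and B cells do not mature. Mice of the CaCl2 plus IgG group (uMT_Ca+IgG) had 0.5 M CaCl2 applied around the aorta and received mouse polyclonal IgG into the peritoneum. CaCl2 mice (uMT_Ca) had the same CaCl2 application without IgG, and sham mice (uMT_sham) had saline applied in its place. CaCl2-treated aortas, with or without IgG, were taken on day 7, while the sources used here give no day for sham mice. Each group had 3 samples, each on 1 array of a 1-colour Agilent design. The labels give no age or sex, do not say whether samples were single animals or pools, and state no serum or vehicle injection for the groups without IgG. Since nothing names the animals, the spread behind each p-value may be technical rather than between mice.

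Activating members of the family signal through an immunoreceptor tyrosine-based activation motif, either in their own tail or in the partner chains FcRγ (Fcer1g) and DAP12 (Tyrobp). The kinase Syk binds the phosphorylated motif and passes the signal through Card9, Bcl10 and Malt1 to NF-κB, which turns on cytokine genes. Inhibitory members carry a motif that recruits the phosphatases SHP-1 (Ptpn6) and SHP-2 (Ptpn11) instead. In arteries these receptors are known mainly from macrophages that enter the injured wall.

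Promoter sequences are shown for 4 members because the groups separated strongly at the first 3, Clec4e, Clec4d and Clec7a, and overlapped at the fourth, Clec4a2. Each runs 5′ to 3′ along the gene's own strand over the 250 bases before its start, as given by RefSeq on build GRCm38.p6. Capitals mark the core GAGGAA bound by PU.1, the master factor of myeloid cells, on either strand, and TTGCNNAA, a core bound by C/EBP factors, also on either strand. Clec4e lies on the minus strand at chr6:123289872-123290121, Clec4d on the plus strand at chr6:123261857-123262106, Clec7a on the minus strand at chr6:129472780-129473029, and Clec4a2 on the plus strand at chr6:123122440-123122689.
Clec4e: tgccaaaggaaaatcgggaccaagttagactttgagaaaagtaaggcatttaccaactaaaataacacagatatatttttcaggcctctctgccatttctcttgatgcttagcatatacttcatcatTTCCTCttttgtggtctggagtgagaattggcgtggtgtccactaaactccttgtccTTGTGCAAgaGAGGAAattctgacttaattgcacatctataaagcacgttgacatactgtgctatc
Clec4d: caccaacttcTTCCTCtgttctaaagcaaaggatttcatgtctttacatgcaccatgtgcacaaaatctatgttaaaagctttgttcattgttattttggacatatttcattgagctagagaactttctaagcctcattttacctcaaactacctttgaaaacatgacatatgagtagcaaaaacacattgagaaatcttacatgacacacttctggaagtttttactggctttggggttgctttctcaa
Clec7a: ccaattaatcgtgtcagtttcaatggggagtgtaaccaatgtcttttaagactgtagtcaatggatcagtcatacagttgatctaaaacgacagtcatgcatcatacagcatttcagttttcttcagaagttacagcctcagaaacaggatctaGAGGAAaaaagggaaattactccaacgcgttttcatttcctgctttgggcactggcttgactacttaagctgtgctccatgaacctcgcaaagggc
Clec4a2: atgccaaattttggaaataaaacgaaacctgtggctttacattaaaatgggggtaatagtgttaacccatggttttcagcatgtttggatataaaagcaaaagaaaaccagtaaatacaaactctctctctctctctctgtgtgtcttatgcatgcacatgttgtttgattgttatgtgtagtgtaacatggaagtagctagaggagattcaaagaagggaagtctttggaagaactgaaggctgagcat

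The Clec4e window held the PU.1 core at 123 to 118 and at 56 to 51 bases before the start, and the C/EBP core at 66 to 59 bases before it. The Clec4a2 window held neither. RefSeq windows were matched for 8 of 10 members, 10 windows in all, with none for Clec4n and Clec10a, and the pairs for Clec7a and for Clec4a3 overlap each other. The PU.1 core was present in 8 of these 10 windows and in 23.3% of 32851 promoter windows of the same length. The C/EBP core was present in 2 of 10, at Clec4e and Clec12a, and in 9.56% of all windows. The AP-1 site TGANTCA was present in 1 of 10, at Clec12a, and in 6.75% of all, and the NF-kB consensus in 0 of 10 and in 3.9% of all. These motifs were chosen with the sequences in view, a match is a run of letters and not a shown binding site, and the PU.1 core occurred also at Clec5a and Clec12a, which were not measured above background in most samples.

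Each member had 1 probe of 60 bases, so no second probe checks any of them, and where in the transcript the probes lie was not determined. No 2 of the 10 probes shared more than 9 bases in a row. Values are log2 signals relative to the 75th percentile of the array, so 0 is the level under which 75% of the probes on that array lie. Levels of different probes are not set against each other.

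Per array, 54.9% to 59.9% of probes stood well above background, 0 were saturated, and the 75th percentile lay at 269.5 to 455 on the CaCl2 plus IgG arrays, 381 to 496 on the CaCl2 arrays and 267 to 302 on the sham arrays. Sham replicate 3 alone was on a second slide, scanned separately. Replicate 3 of CaCl2 plus IgG had a mean correlation of 0.959 with its own group across genes, against 0.973 to 0.987 for the other 8 arrays. Markers of B and plasma cells were not absent from these B cell-deficient aortas, and their summed signal, in multiples of the 75th percentile, over 8 genes, was 33.8 to 54.0 with CaCl2 plus IgG, 17.7 to 31.4 with CaCl2 and 1.25 to 2.18 in sham aortas. Bright genes weigh most in this sum, and the 8 genes did not move alike. Against sham, 6 of them were called higher with CaCl2 plus IgG and 5 with CaCl2 (limma, adjusted p under 0.05). Of all tested genes 14.9% and 17.6% were. Jchain had the largest differences of the 8, at 6.51 and 5.55 (log2), while Pax5 stood at -1.17 and -1.90 and was not called. In bulk tissue, more cells of a type and more RNA per cell cannot be told apart.

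Clec4e encodes Mincle, which pairs with FcRγ and binds mycobacterial glycolipid and the nuclear protein SAP130 set free by dying cells. Its probe lies on the minus strand at chr6:123232878-123232937 on build mm9, which the array files use and whose positions cannot be set against those of the promoters. It read -0.01, 0.12 and -0.08 with CaCl2 plus IgG, -0.23, 0.61 and 1.29 with CaCl2, and -6.59, -5.52 and -6.50 in sham aortas. All 6 CaCl2-treated arrays stood far above the 3 sham arrays, on which the probe was not well above background. In processed signal units that was 255 to 494 with CaCl2 plus IgG, 423 to 928 with CaCl2 and 2.81 to 6.58 in sham aortas. The sham level is thus only a bound. With the main processing the gene was at least 19.5-fold higher with CaCl2 plus IgG and at least 28.5-fold higher with CaCl2 than in sham aortas. The bound takes for sham, on each array, the higher of the probe's own signal and the lowest signal that was well above background. The fitted differences of 6.21 and 6.76 depend on signals under that limit and are no bounds. With normexp background correction they were 2.55 and 3.06 (log2), less than the bounds above, which thus do not hold under every setting.

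Clec4d encodes MCL, the partner that brings Mincle to the cell surface, and its probe lies next to Clec4e at chr6:123224788-123224847 on mm9. It read 3.49, 3.47 and 3.53 with CaCl2 plus IgG, 3.73, 3.42 and 3.54 with CaCl2, and -0.12, 1.04 and -1.27 in sham aortas. The treated arrays lay within a narrow band and above every sham array, while the sham arrays spread widely. The difference from sham was 3.61 ± 0.48 with CaCl2 plus IgG and 3.68 ± 0.48 with CaCl2 (SE, log2), or 12.2-fold and 12.8-fold.

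Clec4n encodes Dectin-2, an FcRγ-coupled receptor for fungal mannans, with its probe at chr6:123196969-123197028 on mm9. Signals were 3.73, 4.04 and 4.14 with CaCl2 plus IgG, 3.86, 3.85 and 4.60 with CaCl2, and 1.06, 0.50 and -0.27 in sham aortas, with no overlap between treated and sham arrays. It was higher than sham by 3.54 ± 0.34 with CaCl2 plus IgG and by 3.68 ± 0.34 with CaCl2 (SE, log2).

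Clec7a encodes Dectin-1, the receptor for fungal β-glucan, which carries its activating motif in its own tail. Its probe lies on the minus strand at chr6:129411739-129411798 on mm9. It read 4.76, 3.80 and 4.31 with CaCl2 plus IgG, 4.18, 4.48 and 5.92 with CaCl2, and 1.82, 2.39 and -0.45 in sham aortas. No treated array fell to the level of a sham array, but Clec7a had the largest SE among the measured members. The difference was 3.03 ± 0.74 with CaCl2 plus IgG and 3.60 ± 0.74 with CaCl2 (SE, log2), or 8.20-fold and 12.2-fold. Without sham replicate 3, the lowest array, these were 2.18 and 2.75.

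Clec5a encodes MDL-1, which couples to DAP12, and its probe lies at chr6:40525116-40525175 on mm9, far from the other members. It was well above background on 1 array, CaCl2 replicate 2, at 20.2 signal units. On the other 8 arrays it ran from 3.72 to 17.8 units, and neither a fold nor a test is given.

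**Figure D1:**
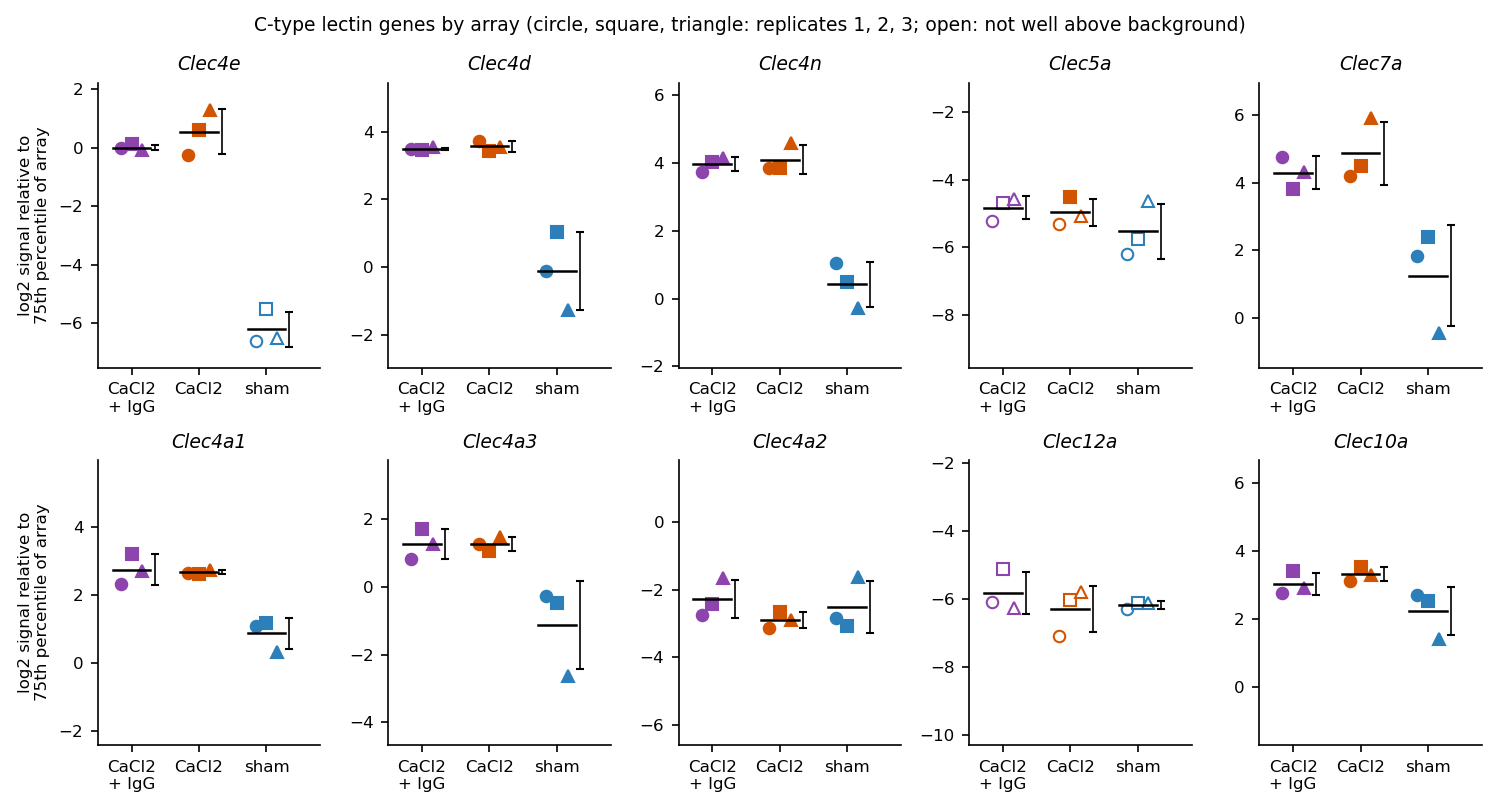
Log2 signal of the 10 lectin genes on each array, relative to the 75th percentile of that array, with CaCl2 plus IgG left, CaCl2 in the middle and sham right. Points are arrays (circle, square and triangle for replicates 1, 2 and 3, open where the probe was not well above background), lines are group means and bars are SD (n = 3 each). Treated arrays lie above all sham arrays for Clec4e, Clec4d, Clec4n, Clec7a, Clec4a1, Clec4a3 and Clec10a, and overlap them for Clec4a2.

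Among the inhibitory members, Clec4a2 encodes DCIR1, the form with an inhibitory motif that damps dendritic cell activation. Its probe, at chr6:123093890-123093949 on mm9, read -2.74, -2.42 and -1.66 with CaCl2 plus IgG, -3.14, -2.66 and -2.90 with CaCl2, and -2.84, -3.06 and -1.62 in sham aortas. The groups overlapped, and the highest of the 9 arrays was sham replicate 3. The signal was dim, at 36.2 to 86.7 units, but well above background on all 9 arrays. The difference from sham was 0.23 ± 0.41 with CaCl2 plus IgG and -0.39 ± 0.41 with CaCl2 (SE, log2). The CaCl2 plus IgG value turned to -0.10 with normexp, to -0.07 without CaCl2 plus IgG replicate 3 and to -0.04 without sham replicate 2. The CaCl2 value turned to 0.05 without sham replicate 3 and to 0.08 with scaling to the median.

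Clec12a encodes MICL, an inhibitory receptor that binds uric acid crystals from dead cells. Its probe was well above background on 0 of 9 arrays, at 3.41 to 13.0 signal units, so the arrays give no comparison of this gene.

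Clec4a1 and Clec4a3 encode DCIR4 and DCIR3, close relatives of DCIR1 that lack its inhibitory motif. The probes lie at chr6:122884578-122884637 and chr6:122919637-122919696 on mm9. Clec4a1 read 2.32, 3.23 and 2.72 with CaCl2 plus IgG, 2.66, 2.64 and 2.75 with CaCl2, and 1.1, 1.19 and 0.34 in sham aortas. Clec4a3 read 0.81, 1.70 and 1.26 with CaCl2 plus IgG, 1.27, 1.05 and 1.46 with CaCl2, and -0.29, -0.47 and -2.64 in sham aortas. Both lay above sham on all 6 treated arrays, unlike Clec4a2. The differences from sham were 1.88 ± 0.28 with CaCl2 plus IgG and 1.81 ± 0.28 with CaCl2 for Clec4a1, and 2.39 ± 0.57 in both for Clec4a3 (SE, log2). For Clec4a3 both values rest partly on sham replicate 3, without which they were 1.63 and 1.64.

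Clec10a encodes MGL1, an endocytic receptor of macrophages and dendritic cells for galactose and N-acetylgalactosamine, and is the only member off chromosome 6, at chr11:69984254-69984313 on mm9. It read 2.78, 3.41 and 2.91 with CaCl2 plus IgG, 3.13, 3.54 and 3.29 with CaCl2, and 2.72, 2.54 and 1.42 in sham aortas. The treated arrays lay just above the sham arrays, the gap between the lowest array with IgG and the highest sham array being 0.06. The difference was 0.81 ± 0.34 with CaCl2 plus IgG and 1.09 ± 0.34 with CaCl2 (SE, log2), the smallest of the members that lay above sham. Without sham replicate 3 it was 0.40 and 0.69.

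In the comparison with sham, 8 of 10 members passed the filter, which kept a probe only if some group had it well above background on each of its 3 arrays. With CaCl2 plus IgG, 6 of these 8 were called higher (limma, adjusted p under 0.05), where 14.9% of all tested genes were. With CaCl2 it was 7 of 8, where 17.6% of all tested genes were called higher. The arrays did not overlap, with treated ones higher, for 7 of 8 members in both comparisons, and for 20.5% and 24.8% of all genes. Since Clec4e and its relatives were chosen from this contrast, and the comparisons share the sham arrays, nothing is read from these counts. Over the 8 members the median difference from sham was 2.71 with CaCl2 plus IgG and 3.00 with CaCl2, against -0.09 and -0.08 over all tested genes. With scaling to the median of each array the medians of all genes were 0.15 and 0.39, and the share of calls that were higher was 71.8% and 77.3% in place of 50.9% and 47.9%, while the members' counts were the same.

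Slides hold arrays in 2 rows. Row 1 held CaCl2 plus IgG replicate 1, all 3 CaCl2 arrays and, on the other slide, sham replicate 3, and row 2 held CaCl2 plus IgG replicates 2 and 3 with sham replicates 1 and 2. Within row 1 Clec7a exceeded sham by 5.20 with CaCl2 plus IgG and by 5.30 with CaCl2, and within row 2 by 1.95 with CaCl2 plus IgG. Clec4e moved little, at 6.49 and 7.05 in row 1 and 6.07 in row 2. Clec4a2 was -1.12 and -1.28 in row 1 and 0.91 in row 2. Because row 1 has only sham replicate 3, these values cannot be told apart from that single array.

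Sham replicate 3 was the lowest sham array for Clec4d, Clec4n, Clec7a, Clec4a1, Clec4a3 and Clec10a, and the highest for Clec4a2. Its mean log2 signal over 14 macrophage markers was -0.23, against 1.00 and 1.18 in sham replicates 1 and 2. The part of these cells in the lectin values was not tested.

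**Figure D2:**
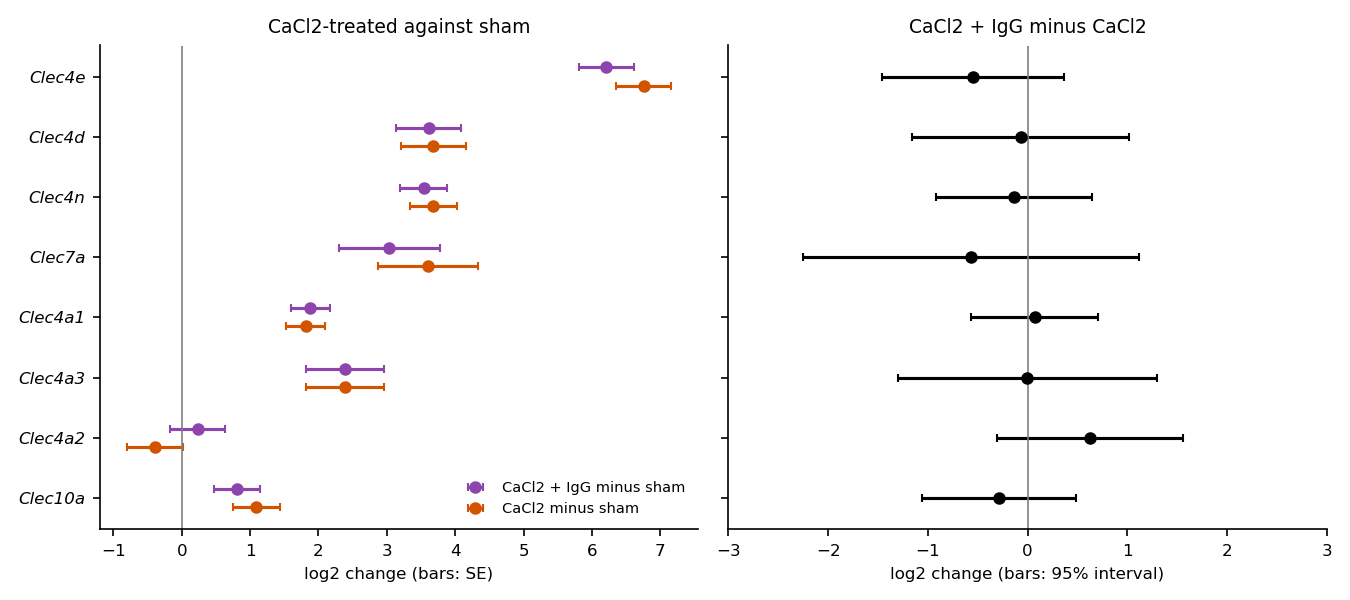
Log2 differences of the 8 lectin genes that passed the filter, from the fit on all 9 arrays. The left panel gives CaCl2 plus IgG and CaCl2 against sham with bars of 1 SE, untested because the genes were chosen from this contrast, where the Clec4e points rest on sham signals under background. The right panel gives CaCl2 plus IgG minus CaCl2 with 95% intervals, each of which includes 0.

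With added IgG, the arrays of every tested lectin gene overlapped those of CaCl2 alone. This comparison asks whether polyclonal IgG, the ligand of the Fc receptors that also use FcRγ and Syk, alters the receptors' levels in aortas without B cells. Of 8 tested members 0 were called. Clec4e differed by -0.55 (95% interval -1.46 to 0.37), Clec4d by -0.07 (-1.16 to 1.02), Clec4n by -0.13 (-0.92 to 0.65) and Clec7a by -0.57 (-2.25 to 1.12) on the log2 scale. Clec4a1 differed by 0.07 (-0.57 to 0.71), Clec4a3 by 0.00 (-1.30 to 1.30), Clec4a2 by 0.63 (-0.30 to 1.56) and Clec10a by -0.29 (-1.06 to 0.48). All 8 adjusted p were 1.00 in limma. The intervals reach 1 log2 unit or more from 0 for 6 of the 8 members, all but Clec4n and Clec4a1, so equal levels are not shown.

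Over all genes limma called 0 of 16270 with added IgG (0%), 239 at an unadjusted p under 0.05 (1.47%), and 181 with trend and robust variance. The arrays of the groups did not overlap for 2.62% of genes that were higher and 2.4% that were lower with IgG, and for 0 of the 8 members. Without CaCl2 plus IgG replicate 3, the array that stood apart, Clec4e differed by -0.50 and Clec4a2 by 0.32. With slide row as a block Clec7a differed by -1.19, Clec4a3 by -0.98 and Clec10a by -0.82, and again 0 of 8 were called. Within row 1, where 1 array with IgG met all 3 CaCl2 arrays, the 8 differences ran from -0.57 to 0.16.

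The counts per list from here on stand beside these shares of all tested genes. Called higher were 14.9% with CaCl2 plus IgG and 17.6% with CaCl2, and called lower were 14.4% and 19.2%. Macrophage markers moved in the same direction as most lectin members. Of 15 listed markers Ly6c2 had no probe, and of the other 14, 10 rose and 1 fell (limma, adjusted p under 0.05) both with CaCl2 plus IgG and with CaCl2. Their summed signal was 210.2 to 258 multiples of the 75th percentile with CaCl2 plus IgG, 232 to 264 with CaCl2 and 36.0 to 90.2 in sham aortas. The macrophage markers Csf1r, Adgre1 and Lyz2 were well above background on all 9 arrays. Mertk was the marker that fell, at -1.03 with CaCl2 plus IgG and -0.84 with CaCl2 (log2; limma, adjusted p = 0.00805 and 0.0163). Cd163, Lyve1 and Folr2 were called in neither comparison. The median difference over the 14 was 2.40 with CaCl2 plus IgG and 2.52 with CaCl2. Of 11 tested neutrophil markers 6 rose with CaCl2 plus IgG and 4 with CaCl2. Their mean log2 signal was -0.80, -0.59 and -0.27 with CaCl2 plus IgG, -1.04, -1.08 and -0.37 with CaCl2, and -2.47, -2.38 and -2.28 in sham aortas. The summed signal, in which bright genes weigh most, was 139.9 to 347 with CaCl2 plus IgG, 138 to 163 with CaCl2 and 216 to 280 in sham aortas. Ngp was not well above background on any array, and Mpo, Ltf, Cxcr2 and Mmp8 on 0 of 3 sham arrays. Dendritic cell markers summed to 325 to 452 with CaCl2 plus IgG, 349 to 465 with CaCl2 and 261 to 285 in sham aortas, and 5 of 8 rose in both treated groups, while Siglech fell by 0.88 with CaCl2 (limma, adjusted p = 0.0306). Smooth muscle markers, all 7 of which fell, summed to 881 to 1204 with CaCl2 plus IgG, 802 to 1289 with CaCl2 and 2585 to 2974 in sham aortas. The part of any of these cells in the lectin values was not tested.

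The adaptors and proximal kinases of the receptors rose together with CaCl2. Of 9 genes 8 rose with CaCl2 plus IgG and the same number with CaCl2, with median differences of 2.45 and 2.43, and only Src did not pass. Fcer1g, the FcRγ chain used by Mincle and Dectin-2, read 5.44, 5.44 and 5.59 with CaCl2 plus IgG, 5.47, 5.25 and 5.46 with CaCl2, and 3.69, 3.86 and 2.02 in sham aortas. It rose by 2.30 ± 0.42 with CaCl2 plus IgG (SE, log2; limma, adjusted p = 0.00542) and by 2.20 ± 0.42 with CaCl2 (adjusted p = 0.00572). Tyrobp, the DAP12 chain, read 5.91, 5.69 and 6.07 with CaCl2 plus IgG, 6.00, 5.70 and 5.75 with CaCl2, and 4.15, 4.31 and 1.87 in sham aortas, a rise of 2.37 ± 0.56 with CaCl2 (limma, adjusted p = 0.0134), which was 1.59 without sham replicate 3, the lowest array, and 3.15 with slide row as a block. Syk read 2.01, 2.50 and 2.59 with CaCl2 plus IgG, 2.69, 2.25 and 3.03 with CaCl2, and 1.09, 1.38 and 0.59 in sham aortas. It rose by 1.34 ± 0.27 with CaCl2 plus IgG (adjusted p = 0.00831) and by 1.64 ± 0.27 with CaCl2 (adjusted p = 0.00325, limma). All 3 genes were higher on 6 of 6 treated arrays than on any sham array.

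Other kinases of blood cells rose as well. Btk, which acts beside Syk, rose by 4.0 ± 0.26 with CaCl2 (SE, log2; limma, adjusted p = 0.000172). The Src-family kinases Fgr and Lyn, which phosphorylate the activating motifs, rose with CaCl2 by 4.08 ± 0.41 and 2.79 ± 0.36 (limma, adjusted p = 0.000573 and 0.0012). With CaCl2 plus IgG the values were 3.55 for Btk, 3.85 for Fgr and 2.87 for Lyn. Btk, Fgr and Lyn were well above background on 2 of 3 sham arrays. With normexp correction the values were smaller but still called, at 1.78, 1.87 and 1.12 with CaCl2 plus IgG and 2.10, 2.07 and 1.02 with CaCl2.

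Downstream of Syk, 18 of 19 listed genes were tested, and 10 rose and 1 fell with CaCl2 plus IgG, and 11 rose and 1 fell with CaCl2. The calls with CaCl2 plus IgG dropped to 7 without CaCl2 plus IgG replicate 2 and without sham replicate 1. That was not the lowest count over the settings tried. The lowest by far came within row 1, where 1 array with IgG met 1 sham array, and is not given. Vav1, an exchange factor phosphorylated by Syk, rose by 2.98 ± 0.26 with CaCl2 plus IgG and by 3.05 ± 0.26 with CaCl2 (SE, log2; limma, adjusted p = 0.000427 and 0.000366). Malt1 rose by 1.31 ± 0.21 with CaCl2 (limma, adjusted p = 0.00279), Map3k14, the kinase of the alternative NF-κB route, by 1.65 ± 0.18 (adjusted p = 0.000744) and Nfatc2 by 2.46 ± 0.28 (adjusted p = 0.000826), or by 1.14 as the mean of its probes. Lcp2, the adaptor SLP-76, was not well above background in sham aortas and was at least 3.58-fold higher with CaCl2 plus IgG (limma, adjusted p = 0.00366). With normexp correction the call was lost and the Lcp2 difference was 0.37 (log2), less than the bound. Card9, the adaptor that links Syk to Bcl10, was near background, with 0 of 3 sham arrays well above it, and was at least 1.47-fold higher with CaCl2 plus IgG (adjusted p = 0.0101) and at least 1.02-fold higher with CaCl2 (limma, adjusted p = 0.0325). Lcp2 and Card9 passed the filter through treated arrays alone. Their adjusted p come from fits that use sham signals under background, so they do not test these bounds. With normexp correction Card9 stood at 0.05 with CaCl2 plus IgG and -0.22 with CaCl2, and both calls were lost. The CaCl2 call was also lost with trend and robust variance (adjusted p = 0.0506, limma), without sham replicate 1 or 3 and without CaCl2 replicate 1 or 3.

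Among 5 inhibitory phosphatases and ubiquitin ligases 2 rose and 1 fell in both treated groups. Ptpn6, which encodes SHP-1, rose by 2.57 ± 0.40 with CaCl2 plus IgG and by 2.60 ± 0.40 with CaCl2 (SE, log2; limma, adjusted p = 0.00277 and 0.00242). Inpp5d, the lipid phosphatase SHIP-1, rose by 1.89 ± 0.27 with CaCl2 plus IgG and by 2.03 ± 0.27 with CaCl2 (limma, adjusted p = 0.00182 and 0.00128). Ptpn11, which encodes the widely expressed SHP-2, fell by 0.57 with CaCl2 plus IgG and by 0.55 with CaCl2 (limma, adjusted p = 0.00689 and 0.00706), and with scaling to the median the calls were lost at -0.33 and -0.08.

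Among genes known to be switched on through Syk and Card9, 12 of 17 listed were tested, and 10 rose with CaCl2 plus IgG and 11 with CaCl2, with medians of 3.31 and 3.99. Some of the 12 passed the filter through the treated arrays alone, and 3 were called in each comparison when all 9 arrays had to be well above background. Il1b, which encodes interleukin-1β, read 1.68, 2.51 and 0.83 with CaCl2 plus IgG, 2.23, 0.90 and 3.05 with CaCl2, and -3.69, -4.24 and -4.32 in sham aortas, on 1 of which it was well above background. It rose by 5.76 ± 0.57 with CaCl2 plus IgG and by 6.15 ± 0.57 with CaCl2 (SE, log2; limma, adjusted p = 0.00063 and 0.000454), differences that were 3.60 and 3.98 with normexp correction. Tnf was not well above background in sham aortas and was at least 2.99-fold higher with CaCl2 plus IgG and at least 5.01-fold higher with CaCl2 (limma, adjusted p = 0.00222 and 0.000905). Csf2 and Il12b, encoding GM-CSF and the p40 chain of interleukin-12, were at least 1.87-fold and 1.41-fold higher with CaCl2 (limma, adjusted p = 0.000878 and 0.00106). Tnf, Csf2 and Il12b passed the filter through treated arrays alone. Their adjusted p come from fits that use sham signals under background, so they do not test these bounds. The chemokine gene Ccl4, well above background on 2 of 3 sham arrays, rose by 4.11 ± 0.63 with CaCl2 plus IgG (limma, adjusted p = 0.00256), and by 2.36 with normexp correction. Normexp correction compresses dim signals. With it, the calls of Csf2 and Il12b with CaCl2 and of Tnf and Il12b with CaCl2 plus IgG were lost. The differences were then 0.79 for Tnf, 0.18 for Csf2 and -0.06 for Il12b with CaCl2 (log2). For Tnf with CaCl2 plus IgG the difference was 0.52. Each is less than its bound above, so these bounds do not hold under every setting. Nlrp3, whose product forms an inflammasome, stood at 0.04 with CaCl2 plus IgG and 0.01 with CaCl2 and did not pass.

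Of 5 endogenous ligands, 1 rose with CaCl2 plus IgG, and 1 rose and 1 fell with CaCl2, near the shares of all genes. Anxa1, an annexin on dying cells that Dectin-1 is known to bind, rose by 1.07 ± 0.17 with CaCl2 plus IgG and by 1.08 ± 0.17 with CaCl2 (SE, log2; limma, adjusted p = 0.00264 and 0.00233). Sf3b3, which encodes SAP130, the ligand of Mincle, stood at -0.06 with CaCl2 plus IgG and 0.04 with CaCl2 and did not pass (adjusted p = 0.813 and 0.861, limma). Vim, encoding vimentin, fell by 0.37 with CaCl2 (limma, adjusted p = 0.0333), and stood at 0.10 with scaling to the median. Its call was lost when any 1 of the 3 sham arrays was left out, and without CaCl2 replicate 1 or 3. It was lost as well with quantile normalization, normexp correction, the authors' series table, no filter, and a replicate or slide row block.

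Transcription factors of myeloid cells were tested at 11 genes, of which 7 rose with CaCl2 plus IgG and 6 with CaCl2, and with CaCl2 plus IgG 4 were called without its replicate 1 or 2. Spi1, which encodes PU.1, rose by 2.14 with CaCl2 plus IgG and by 2.35 with CaCl2 (limma, adjusted p = 0.0426 and 0.0264). With CaCl2, Irf8 rose by 2.84 ± 0.38, Irf5 by 2.90 ± 0.34 and Runx1 by 3.68 ± 0.48 (limma, adjusted p = 0.00135, 0.000898 and 0.00128). Runx1 was higher by 2.70 with normexp correction and by 4.30 without CaCl2 replicate 2. Cebpb, a C/EBP factor, stood at 0.01 with CaCl2 plus IgG and 0.23 with CaCl2 and did not pass.

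Other C-type lectin genes numbered 38, of which 28 were tested, and 12 rose with CaCl2 plus IgG and 13 with CaCl2, with medians of 1.09 and 1.26. Cd72, an inhibitory lectin known best from B cells, read 2.68, 3.04 and 2.59 with CaCl2 plus IgG, 2.66, 2.23 and 3.13 with CaCl2, and -1.86, -1.29 and -2.19 in sham aortas, and rose by 4.55 ± 0.29 with CaCl2 plus IgG and 4.45 ± 0.29 with CaCl2 (SE, log2; limma, adjusted p = 0.000182 and 0.000171). With normexp correction these were 3.69 and 3.63. Cd69, a marker of activated lymphocytes, was at least 5.18-fold higher with CaCl2 plus IgG and at least 6.48-fold higher with CaCl2 (limma, adjusted p = 0.00108 and 0.000849). It was not well above background on any sham array, so these adjusted p rest on signals under background and do not test the bounds. With normexp correction the call with IgG was lost. The differences were then 1.13 with CaCl2 plus IgG and 1.34 with CaCl2 (log2), less than the bounds. Mrc2, a collagen receptor of fibroblasts and macrophages, rose by 1.95 ± 0.23 with CaCl2 plus IgG and 2.06 ± 0.23 with CaCl2 (limma, adjusted p = 0.000883 and 0.000745), or by 0.90 and 1.00 as the mean of its probes. Mgl2, the closest relative of Clec10a, stood at -0.09 with CaCl2 plus IgG and 0.00 with CaCl2 and did not pass. Whether members and other lectin genes differ was not tested. Over all 7 lists 50 genes rose and 2 fell with CaCl2 plus IgG, and 52 rose and 3 fell with CaCl2, of 88 tested, where 29.3% and 36.8% of all genes were called in either direction. Between CaCl2 plus IgG and CaCl2, 0 of the 88 were called, with 1.47% of all genes at an unadjusted p under 0.05.

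**Figure D3:**
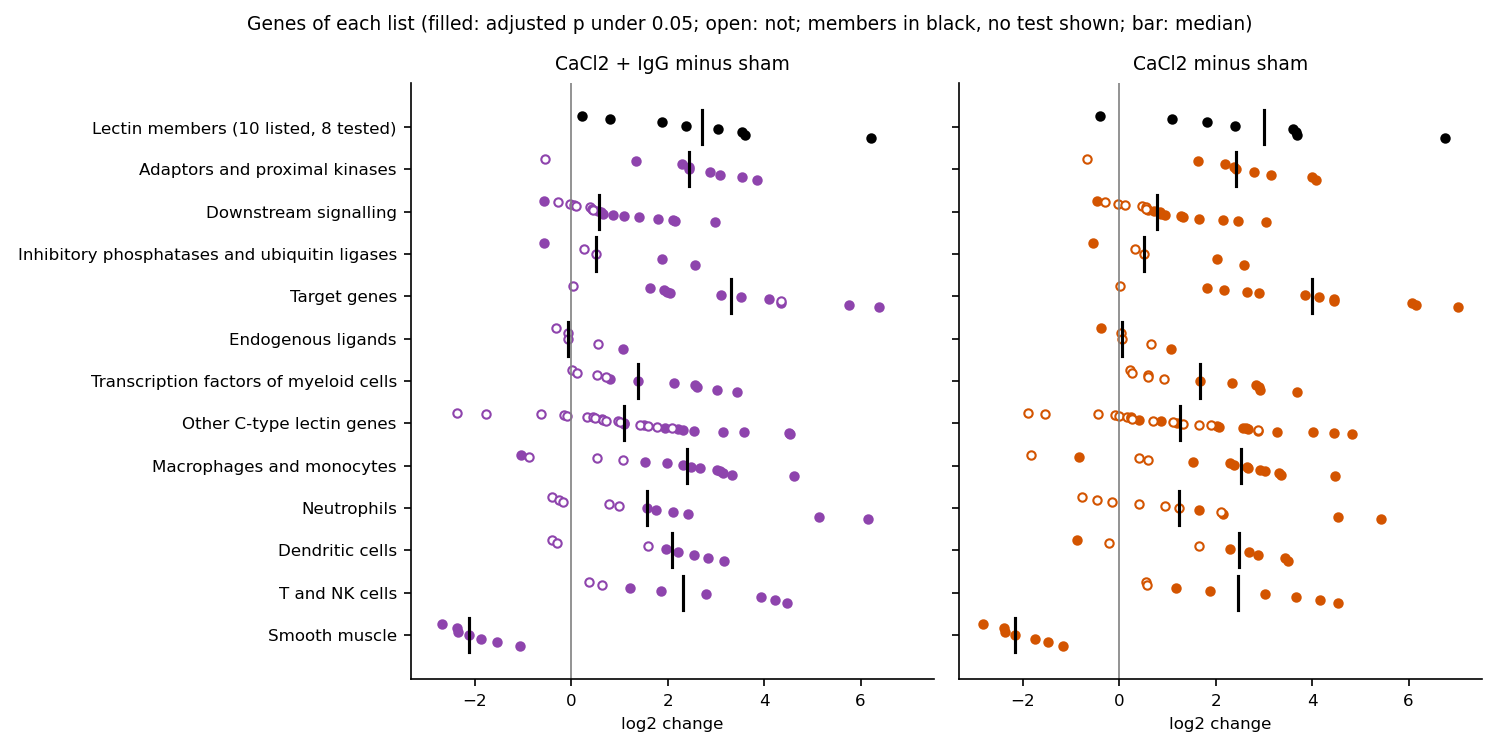
Log2 differences of the lectin members, the 7 lists of pathway genes and 5 lists of cell markers, CaCl2 plus IgG minus sham on the left and CaCl2 minus sham on the right. Points are genes, filled where limma's adjusted p was under 0.05 and open where not, members are in black with no test shown, and the vertical bar is the median, which lies at 2.71 and 3.00 for the members and at 2.45 and 2.43 for adaptors and kinases.

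Clec4a1, Clec4a3, Clec4a2, Clec4n, Clec4d and Clec4e lie within 348.4 kb of each other on chromosome 6, and probes inside and beside this stretch did not all follow them. Clec4b1, between Clec4a3 and Clec4a2, had 2 probes, which were higher by 2.54 and 2.67 with CaCl2 plus IgG and by 2.58 and 2.49 with CaCl2. Clec4a4, which encodes the inhibitory receptor DCIR2, and Clec4b2 did not pass the filter. C3ar1, the receptor for complement C3a on the Clec4a1 side, rose by 2.17 in both treated groups (with CaCl2, limma, adjusted p = 0.00398). Necap1, an endocytosis gene between C3ar1 and Clec4a1, stood at -0.02 with CaCl2 plus IgG and 0.11 with CaCl2 and did not pass. On the Clec4e side, Vmn2r19 and Vmn2r20, receptor genes of the vomeronasal organ, were well above background on no array.

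**Figure D4:**
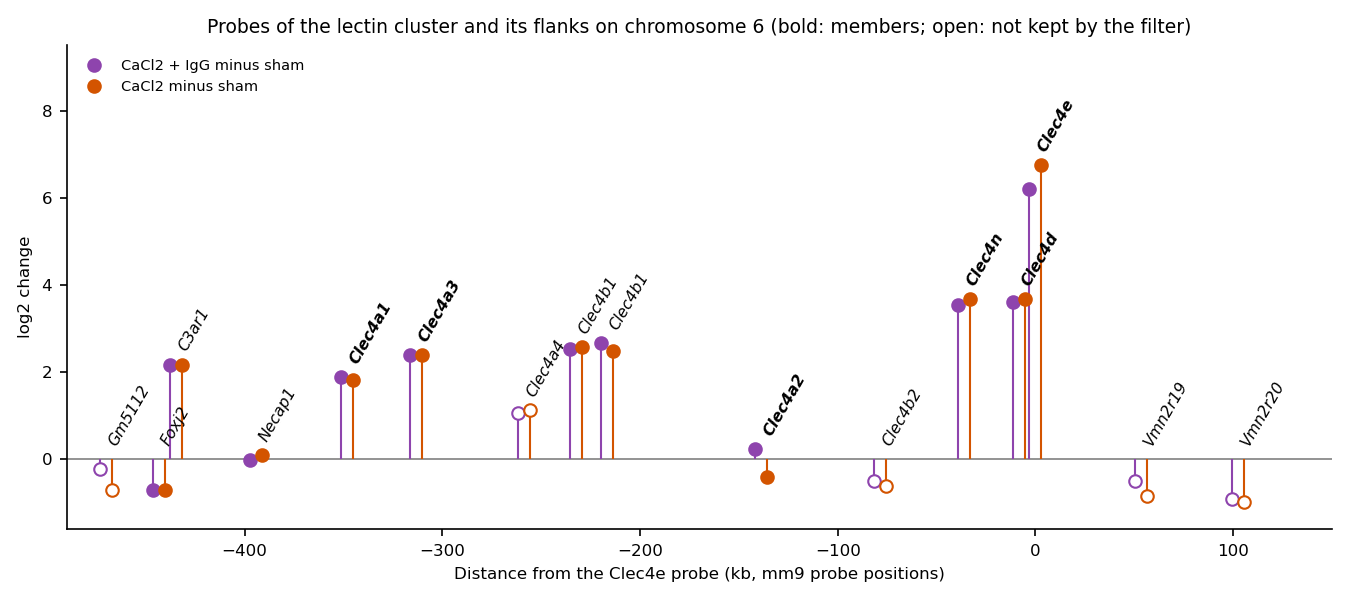
Log2 differences from sham of the probes in the lectin cluster of chromosome 6 and its flanks, against distance from the Clec4e probe in kb. Purple points are CaCl2 plus IgG and orange points CaCl2, drawn 3 kb to the left and right of the probe, open where the probe did not pass the filter, and member names are in bold. Clec4n, Clec4d and Clec4e, the right end of the cluster, lie highest, at 3.54 and more, while Clec4a2 lies near 0. The Clec4e points rest on sham signals under background. With normexp correction Clec4e stood at 2.55 and 3.06, below Clec4d (3.37 and 3.48) and Clec4n (3.42 and 3.60), with CaCl2 plus IgG and with CaCl2.

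The genes whose levels over the 9 arrays were most like those of Clec4e, by Pearson correlation, were Myo5a (0.997), Rab15 (0.994), Mbp, Cyth4 and Spn (each 0.993). Those most like Clec10a were Stxbp3 (0.969), Ppp1r21 (0.963), Scn4b (0.955), Usf1 and Pld4 (each 0.950). These values describe 9 arrays in 3 groups and mostly carry the gap between treated and sham arrays, which for Clec4e rests on sham signals under background.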

How the data were processed

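Total RNA of abdominal aorta was amplified, labelled with Cy3 and hybridised to 1-colour Agilent arrays, per the labels' protocols. The deposited scanner files hold spot intensity on a linear scale, made with Feature Extraction 10.7.1.1 per the file headers (9.5.1.1 per the submitters' processing notes), with background subtracted and no normalization between arrays recorded there. A deposited series table of the authors gives intensity too, with a median of 29.7 on every array and correlations of at least 0.999 with the array's own signal. The sources used here do not say how it was normalized, and it served as an alternative.

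Processed signals were divided by the 75th percentile of their array and taken to log2, without control spots and outlier flags. Of 55681 probes 27235 were named by accession, 4146 by symbol and 1146 by the files' own name alone, while 23154 had no symbol. A probe was kept if some group had it well above background on each of its 3 arrays, and the brightest probe stood for a gene. Groups were compared in 1 fit over 9 arrays with limma 3.58.1 (lmFit, eBayes) in R 4.3.3, with Benjamini-Hochberg adjustment over 16270 genes and a threshold of 0.05. The limma fit alone was tested on simulated data, and not the scaling, the filter, the choice of probe or the bounds.

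The members, the 7 pathway lists and the 11 marker lists were chosen with earlier results of these data known. Named were all members, up to 4 called genes per list, direction and comparison by smallest adjusted p, except a few genes that are not reported here, and Syk, Fcer1g, Tyrobp, Card9, Ptpn6 and Inpp5d. Src, Nlrp3, Sf3b3, Spi1, Cebpb, Mgl2, Siglech, Jchain, Pax5, Mertk, Cd163, Lyve1, Folr2 and the neighbours of the lectin cluster fall outside this rule. They were chosen with their values seen. Other scalings, filters, blocks and left-out arrays were tried as alternatives.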

Additional observations from a re-analysis of the deposited data

How the results depend on the processing

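With 3 arrays a group, 1 probe a member and 1 sham array on its own slide, array number limits every value. Signals under background give bounds only, which belong to the main processing and do not hold under every setting. Over 21 other settings 6 to 8 members were called in CaCl2 against sham (7 in the main setting) and 0 in CaCl2 plus IgG against CaCl2, and over 22 settings 5 to 7 in CaCl2 plus IgG against sham (6). Of all 16270 genes, CaCl2 against sham called 5981 in the main setting, 4676 with scaling to the median and 6211 with trend and robust variance. For CaCl2 plus IgG against sham these were 4762, 2962 and 4947. Shares of all genes are not given for every setting, so nothing is read from the member counts against sham here or below. Leaving out 1 array at a time gave 5 to 6 members with CaCl2 plus IgG and 6 to 7 with CaCl2 against sham, and 0 between these groups. For the pathway genes it gave 41 to 53 (52) with CaCl2 plus IgG, 45 to 60 (55) with CaCl2, and 0 between them. Pathway calls in CaCl2 plus IgG against sham dropped to 31 within row 1, where 1 array met 1 array. Requiring all 9 arrays above background removed Clec4e and left 5 and 6 members and 36 and 38 pathway genes with CaCl2 plus IgG and with CaCl2.

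Signs turned in the following cases, and the cause was not tested. In CaCl2 plus IgG minus CaCl2, quantile normalization gave 0.0366 for Clec4a3 and 0.0274 for Ptpn6, normexp gave 0.0381 and 0.00057, and the authors' series table gave 0.0368 and 0.0271. Scaling to the median gave -0.16 for Clec4a1, -0.14 for Fcer1g and -0.16 for Tyrobp, slide row as a block -0.41, -0.52 and -0.70, and row 1 alone -0.36 for Clec4a1. With 1 array left out the ranges were -0.14 to 0.0161 for Clec4d, -0.26 to 0.11 for Clec4n, -0.17 to 0.29 for Clec4a1, -0.22 to 0.22 for Clec4a3, -0.15 to 0.16 for Ptpn6, -0.27 to 0.0503 for Inpp5d and -0.0161 to 0.17 for Tyrobp. In CaCl2 plus IgG minus sham, where members were not tested, Clec4a2 was -0.10 with normexp, -0.07 without CaCl2 plus IgG 3 and -0.04 without sham 2. In CaCl2 minus sham it was 0.0782 with scaling to the median and 0.0505 without sham 3. For pathway genes in CaCl2 minus sham, scaling to the median gave 0.10 for Vim, and normexp -0.0647 for Il12b and -0.22 for Card9.

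Groups share replicate numbers, but of 9 same-numbered pairs 3 had correlated deviations over 0.1 (range -0.20 to 0.22), and 3 of 9 arrays correlated best with their own number, so the numbers were not taken as a pairing. With a replicate block 7 members and 54 pathway genes were called in CaCl2 against sham, 6 and 51 in CaCl2 plus IgG against sham, and 0 and 0 between the treated groups.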
